A study of Oryza sativa Japonica Group with 3 samples.

Results

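ELF3 chromatin immunoprecipitation against input was examined at the level of its summits, the positions where the coverage of precipitated fragments peaks within an enriched region. All lines of the submitters' ELF3 peak list were taken, and lines with the same chromosome, start and end were joined to 1 region. The main list held 1304 summits in 824 regions, of 1550 summits and 1001 regions in the main lists of the whole series. The submitters' second list of the same libraries held 1338 ELF3 summits in 843 regions.

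The ELF3 library came from whole wild-type rice plants of the japonica cultivar Nipponbare, precipitated with a custom-made antibody, and the input library was unprecipitated DNA of the same genotype. Plants of both groups were 14 days old and had grown at 28 °C on solid medium in short days (SD) of 10 h light and 14 h dark. They were collected at zeitgeber time 14 (ZT14), that is 14 h after lights on, as a pool of 20 plants per genotype, and their chromatin was fixed with 1% formaldehyde. With 1 library a side there was no measure of the spread between plants or precipitations, and conditions were not tested against each other. Libraries of the elf3-1 line that the design text mentions, and any control for the specificity of the antibody, were not analysed here. Whole plants mix many tissues, so a site used strongly in few cells and one used weakly in many cannot be told apart.

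ELF3 is a scaffold protein of the plant evening complex, in which it joins the small protein ELF4 to the DNA-binding MYB-type protein LUX. ELF3 itself has no known DNA-binding domain and reaches chromatin through its partners. The complex represses transcription around dusk and at night, and in rice it acts in the photoperiod control of flowering.

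Values rest on 18357646 ELF3 tags and 14797701 input tags that the peak caller kept, and a tag is 1 aligned read of 75 bp extended to the estimated fragment length of 202 bp. The height of a summit is given as its number of ELF3 tags, recovered from the deposited pileup by undoing the scaling of the larger library to the smaller. Every height of both lists came out whole to within 0.01 tags. Called summits ran from 39 to 338 tags with a median of 61. The caller kept 1 tag per position, so the fragment length of 202 bp also sets an upper limit to the tags over a summit. Whether this limit held down the highest summits, and with them their ratios and fold enrichment, was not tested. Fold enrichment is the authors' ratio of coverage to local background, and 53 regions (6.43% of the 824) reached 10 or more. An interval beside a number of tags is an exact 95% Poisson interval, and one beside a share is the Clopper-Pearson interval at the same level. Both cover counting error only, and the Poisson interval takes no account of the upper limit on tags. One beside a median comes from order statistics over regions or summits, which are not replicates.

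Most ELF3 regions had a single summit, but most summits lay in regions with several. There were 584 regions with 1 summit, 137 with 2, 53 with 3, 16 with 4 and 14 with 5. The remaining 20 held 6 to 12. The 240 regions with several summits made up 29.1% of the list (95% interval 26.0 to 32.4%) and held 720 of the 1304 summits (55.2%, 52.5 to 57.9%). The 34 regions with 5 or more summits made up 4.13% of the regions and held 17.1% of the summits.

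The strongest ELF3 sites were almost all of this composite kind. Of the 25 regions whose highest summit reached 250 tags, 24 held several summits (96.0%, 79.6 to 99.9%). The share was 64.7% (52.2 to 75.9%) in the 68 regions from 150 to under 250 tags and 36.2% (29.7 to 43.1%) in the 210 regions from 75 to under 150 tags. It was 18.4% (15.2 to 22.0%) in the 521 regions below 75 tags. A summit is listed only where its own coverage passes the caller's threshold, so a weaker neighbour has less room to be listed beside a low summit.

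Tags at each summit of the 10 regions with most summits show how the composite regions are built. The region with most summits lay on chromosome 3 from 3737235 to 3742626 and had 12. From its start, the summits held 89, 102, 246, 135, 125, 136, 59, 71, 91, 103, 112 and 68 tags. The third stood above all others (95% interval 216 to 279 tags), the 3 after it formed a shoulder of like height, and a separate low rise ended at the eleventh.

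The region on chromosome 8 from 4623482 to 4629550 held 10 summits, with 71, 68, 67, 101, 159, 270, 211, 83, 83 and 70 tags in order. Heights climbed from the third summit to the sixth and dropped after the seventh. Coverage and enrichment put different summits first here. The sixth summit had 270 tags but a background of 22 input tags and 9.51-fold enrichment, and the seventh had 211 tags over 16 input tags and 10.1-fold enrichment. In 24 of the 240 regions with several summits (10.0%, 6.51 to 14.5%) the highest coverage and the highest fold enrichment fell on different summits.

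Neighbouring regions on chromosome 9 differed in shape. In that from 20890411 to 20894660 the 10 summits held 86, 84, 70, 68, 93, 84, 200, 86, 78 and 68 tags, so that 1 summit rose from a nearly level base. In that from 20886436 to 20889467 the 8 summits held 53, 69, 64, 68, 87, 85, 83 and 84 tags, and of all their intervals only that of the first (40 to 69) lay below that of the highest (70 to 107).

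The region on chromosome 7 from 29078902 to 29083746 held 9 summits of 63, 55, 76, 99, 190, 143, 78, 81 and 87 tags. That on chromosome 11 from 7657688 to 7661994 also held 9, of 61, 66, 57, 107, 295, 84, 79, 48 and 50 tags. Both had their maximum at the fifth summit, and the second fell off more steeply on both sides. On chromosome 1 from 8952512 to 8957350 the 8 summits held 55, 64, 65, 162, 317, 66, 75 and 196 tags. The last of these was a second maximum, 1951 bp from the highest summit and separated from it by summits of 66 and 75 tags.

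On chromosome 10 from 22072252 to 22076145 the highest summit was the first, 238 bp from the start of the region. The 8 summits there held 277, 81, 94, 100, 101, 150, 103 and 69 tags. On chromosome 8 from 4608439 to 4611703 they held 64, 132, 94, 159, 73, 82, 96 and 74 tags, with intervals of 110 to 157 for the second and 135 to 186 for the fourth, which overlap. The region of highest enrichment, on chromosome 8 from 9094390 to 9098557, had 7 summits of 80, 87, 82, 75, 111, 338 and 123 tags. Its sixth summit had a 95% interval of 303 to 376 tags, and all other summits of that region lay below 150.

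**Figure D1:**
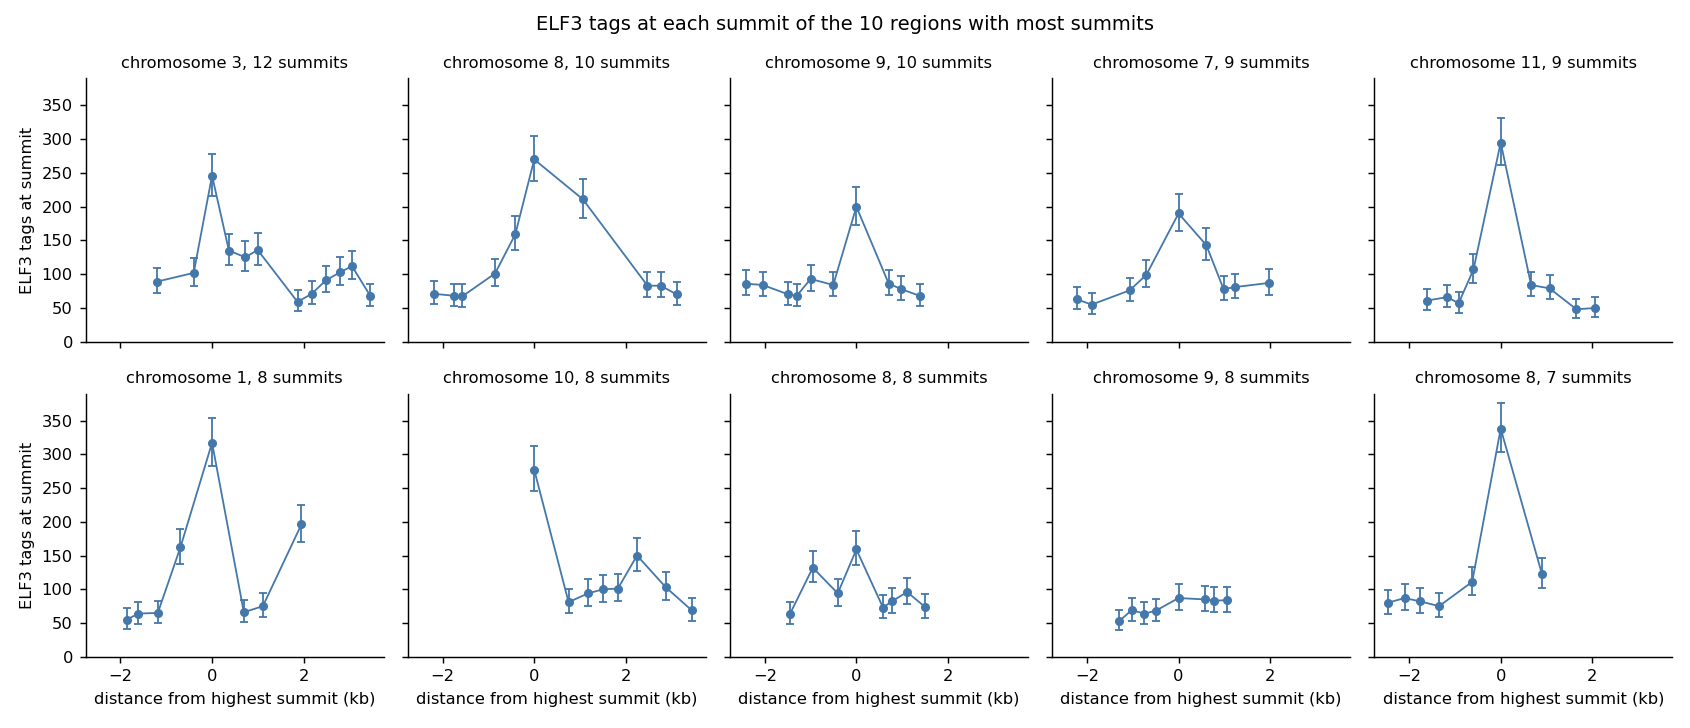
ELF3 tags (vertical axis) at each summit of the 10 regions with most summits, against the distance from the region's highest summit in kb (horizontal axis). Points are summits, bars are exact 95% Poisson intervals of 1 library, and the lines only join neighbouring summits. A single summit stands out in most panels, whereas the region of 8 summits on chromosome 9 is level between 53 and 87 tags.

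Across the 103 regions with 3 or more summits, the heights formed 1 maximum in 57 (55.3%, 45.2 to 65.1%), 2 maxima in 37 and 3 maxima in 9. A maximum here is a summit higher than its neighbours by any number of tags, so some are within counting error. The highest summit lay between others in 53 of the 103 regions and at an end in 50.

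Summits within a region were spaced by a median of 371.5 bp (interval 356 to 395 bp, 480 neighbouring pairs). The spacing ran from 68 to 1412 bp, and its middle 50% from 281 to 533 bp. The fullest 50 bp class was 250 to 299 bp with 72 pairs, followed by 300 to 349 bp with 69. In fragment lengths the median was 1.84. Of the pairs, 36 (7.50%, 5.31 to 10.2%) lay closer than 1 fragment length, 240 between 1 and 2, and 204 (42.5%, 38.0 to 47.1%) at 2 or more. Pairs closer than 202 bp can be covered by the same extended tags, so summits much closer than that are hard to resolve with these libraries. Whether this resolution sets the lower edge of the distribution was not tested.

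Among the summits that the caller listed, the median spacing was longer next to the highest summit than between the others. In regions with 3 or more summits, the spacing next to the highest summit had a median of 503.5 bp (439 to 557 bp, 156 pairs), and the spacing of pairs without it a median of 353 bp (326 to 379 bp, 187 pairs). This difference was not tested, since both come from the same regions of 1 library pair.

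**Figure D2:**
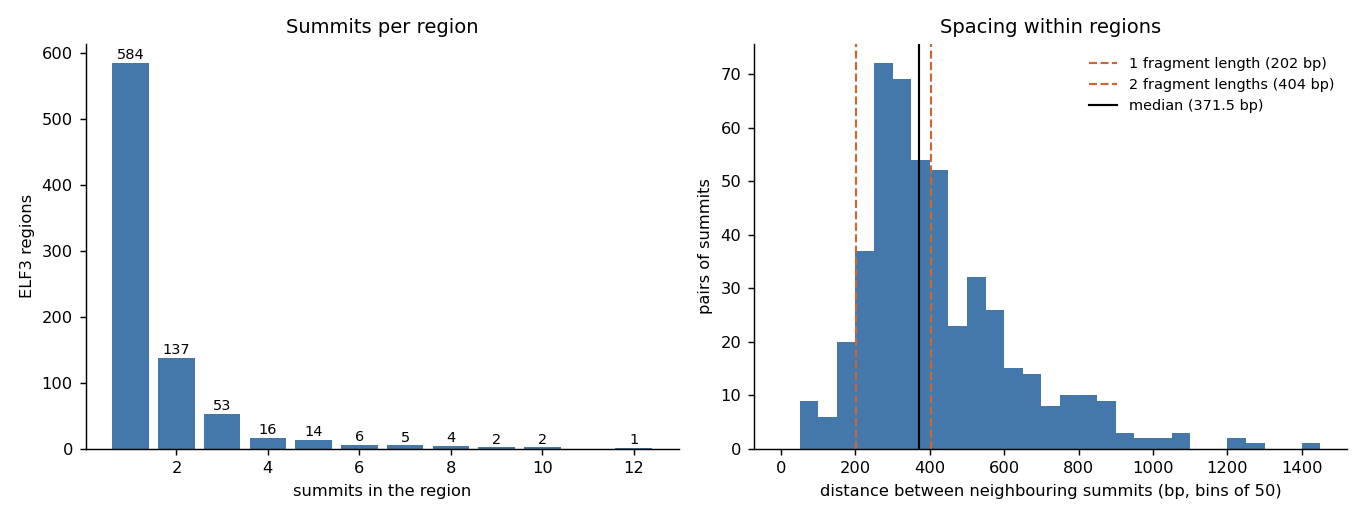
Left, number of ELF3 regions (vertical axis, starting at 0) by the number of summits in the region, with the count above each bar. Right, number of neighbouring summit pairs (vertical axis) by their distance in bp (horizontal axis, bins of 50 bp), with the median of 371.5 bp as a solid line and 1 and 2 fragment lengths (202 and 404 bp) as dashed lines. Most pairs lie beyond 1 fragment length and the longest spacing is 1412 bp.

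Summits of a region were unequal in height. The lowest summit had a median of 0.58 times the pileup of the highest (0.53 to 0.67, 240 regions), and in 102 regions (42.5%, 36.2 to 49.0%) it had less than 0.50 times. In 6 regions all summits had the same number of tags. The second highest summit had a median of 0.70 times the highest. Pielou's index, which is 1 for equal heights, had a median of 0.97 and a lowest value of 0.59. That lowest value belonged to the region on chromosome 1 from 3092715 to 3094248, with 1 summit of 306 tags (273 to 342) and another of 51 tags at 813 bp.

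Inequality grew with height, within a limit set by the threshold. The median of lowest over highest was 0.89 in regions under 75 tags, 0.54 from 75 to under 150 tags, 0.31 from 150 to under 250 tags and 0.22 from 250 tags. Because no summit under 39 tags was listed, the ratio cannot fall below 39 divided by the highest number of tags, and the lowest ratios followed that floor. The top of the range also came down. Above 250 tags no ratio exceeded 0.44, whereas from 75 to under 150 tags ratios reached 0.97. No region of 250 or more tags therefore held summits that were all of like height. The ratio is a minimum over the summits of a region, and higher regions held more of them. Its median was 0.79 in regions with 2 summits, 0.50 with 3 and 0.28 with 5. Second highest over highest had medians of 0.91, 0.58, 0.40 and 0.37 in the same classes of height, from lowest to highest. Height was not separated from the number of summits.

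The least even region of 3 or more summits was that on chromosome 9 from 16458040 to 16460898. Its 5 summits held 52, 110, 335, 85 and 86 tags, a ratio of lowest to highest of 0.16. On chromosome 1 from 10009375 to 10013248 the 7 summits held 74, 65, 53, 77, 337, 106 and 94 tags, also 0.16. On chromosome 3 from 7978102 to 7980370 the 4 summits held 43, 79, 84 and 271 tags. On chromosome 2 from 5469582 to 5472740 the 6 held 61, 264, 53, 59, 44 and 56 tags. The region on chromosome 11 at 7657688, described above, completed the group. In each of them 1 summit had at least 233 tags at the lower bound of its interval while every other summit had at most 133 at the upper bound.

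Among regions with 3 or more summits, the most even were low throughout. On chromosome 3 from 36181477 to 36182377 the 3 summits held 48, 50 and 48 tags. On chromosome 5 from 28985467 to 28986103 they held 43, 43 and 46 tags, and on chromosome 3 from 24538575 to 24539146 they held 42, 41 and 44. On chromosome 11 from 7662094 to 7662974 they held 63, 68 and 69 tags and on chromosome 4 from 22837212 to 22837976 52, 58 and 56. Within each of these 5 regions the counting intervals of all summits overlap, so their heights were not distinguishable at this depth.

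For neighbouring summits at least 1 fragment length apart, whose tags are separate, the split of the pair's tags could be set against counting error. In 233 of 444 such pairs (52.5%, 47.7 to 57.2%) the exact 95% binomial interval of the split held an equal share, and in the others it did not. Summits further apart were less alike. The lower summit had a median of 0.94 times the tags of the higher one in the 36 pairs under 202 bp, which can share tags, and 0.85 in the 240 pairs from 202 to under 404 bp. It was 0.63 in the 126 pairs from there to under 606 bp and 0.38 in the 78 pairs beyond. Distance went together with the height of the region. In regions whose highest summit had under 75 tags no spacing exceeded 575 bp, so all pairs beyond 606 bp lay in higher regions, where ratios can fall lower. Distance was not separated from height.

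Around a summit of 150 or more tags, the other summits of the region were lower with distance up to 2 kb. Those within 500 bp had a median of 94 tags (73 to 113, 27 summits) and those from 500 to under 1000 bp 78 tags (67 to 84, 91 summits). From 1000 to under 2000 bp the median was 65 tags (59 to 68, 81 summits). At 2000 bp or more it was 80 tags (69 to 87, 23 summits). Where the highest summit had 75 to under 150 tags, the corresponding medians were 55, 53 and 58 tags over the first 3 distances, beside a median of 61 tags over all summits of the list.

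**Figure D3:**
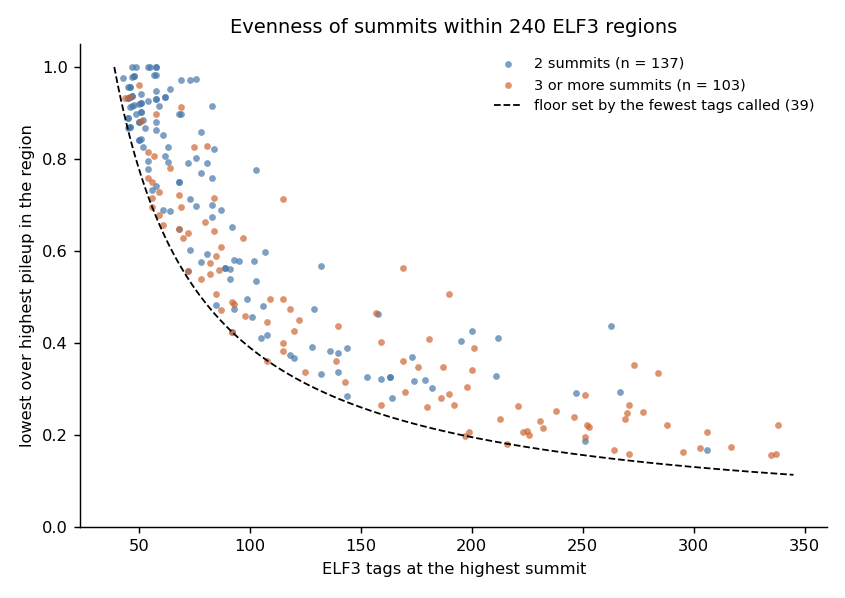
Lowest over highest pileup within a region (vertical axis) against the ELF3 tags at the region's highest summit (horizontal axis), for the 240 regions with several summits, coloured by 2 or by 3 or more summits. The dashed curve is the floor set by the fewest tags at a called summit, 39. Points follow the floor downwards, and none lies above 0.44 beyond 250 tags.

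Higher ELF3 regions were wider. Over the 824 regions, Spearman's rho between width and tags at the highest summit was 0.68. It was 0.59 in the 584 regions with 1 summit and 0.81 in the 240 with several. These are descriptions, with no p-value, because width and height are read from the same coverage: a taller summit crosses the threshold further out. The median height was 51 tags in the 238 regions under 300 bp, 63 in the 458 from 300 to under 1000 bp, 122 in the 87 from 1000 to under 2000 bp and 223 in the 41 of 2000 bp or more. Regions with 1 summit had a median width of 333 bp (318 to 344) and those with several 996.5 bp (915 to 1110). Width per summit rose less, from 241 bp in the class under 300 bp and 384 bp from 300 to under 1000 bp to 525.5 and 526.5 bp in the wider classes.

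The number of summits followed the width. Of the 238 regions under 300 bp, 1 held several summits (0.42%, 0.011 to 2.32%), and all 41 regions of 2000 bp or more did, with 3 to 12 each. Heights in that widest class still ranged from 72 to 338 tags.

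Some of the most enriched ELF3 regions were narrow beside the others of that kind. Of the 53 regions with fold enrichment of 10 or more, 10 had a single summit (18.9%, 9.44 to 32.0%). The median width of the 53 was 1943 bp (1587 to 2524), beside 410 bp over all 824 regions. Narrow here means narrow among the 53. The narrowest of the 53 was 542 bp, on chromosome 1 from 23606889 to 23607430, with 248 tags (218 to 281) and 13.2-fold enrichment. A region on chromosome 6 from 27236006 to 27236768 measured 763 bp and had 192 tags, with 2 second-call summits within its bounds, and one on chromosome 3 from 9768675 to 9769454 measured 780 bp and had 289 tags (257 to 324). The next were 810 bp on chromosome 2 from 24568157 to 24568966, where summits of 85 and 200 tags stood 310 bp apart, and 861 bp on chromosome 7 from 22486780 to 22487640 with 199 tags. The region on chromosome 3 at 9768675 thus had nearly the tags of the highest summit in the 9-summit region on chromosome 11, 295, in 780 bp against 4307 bp. In the second call, 2 summits lay within its bounds as well.

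At the other extreme were wide regions in which the caller resolved 1 summit. The widest, 1213 bp on chromosome 1 from 10612822 to 10614034, had its 235 tags 1020 bp from the start and 192 bp from the end. On chromosome 1 from 39609771 to 39610884 the summit of 136 tags lay 211 bp from the start and 902 bp from the end. The other three were less one-sided. On chromosome 4 from 12113009 to 12114130 the summit of 209 tags lay 526 bp from the start and 595 bp from the end, and on chromosome 10 from 19046793 to 19047903 that of 123 tags lay at 569 and 541 bp. On chromosome 9 from 18761303 to 18762392 the summit of 246 tags lay at 618 and 471 bp. Over all regions with 1 summit, the shorter side was a median of 0.72 times the longer (0.69 to 0.75).

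**Figure D4:**
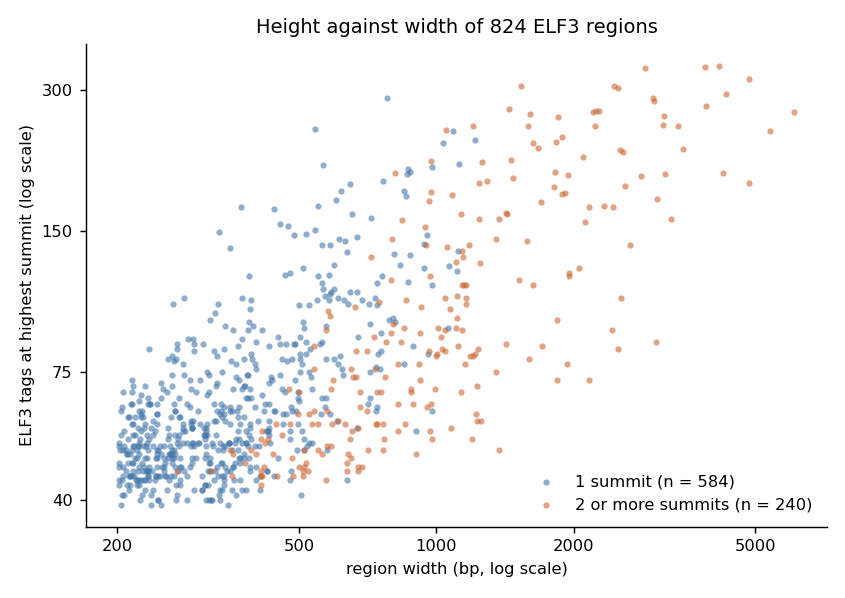
ELF3 tags at the highest summit (vertical axis, log scale) against region width in bp (horizontal axis, log scale) for 824 regions, coloured by 1 or by several summits. Regions of 2000 bp or more all hold several summits, and their heights run from 72 to 338 tags.

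The background that the caller set against the ELF3 summits was mostly at its lowest possible value, the genome-wide mean as the caller computed it. The caller uses the highest of a genome-wide mean and of the input density around the summit, per the file headers over 1000 and 10000 bp among others. The genome-wide mean is therefore a floor, and local input below it does not show in the recovered value. That mean was taken over the effective genome size of 210 Mb and depends on this setting. Positions of the listed regions reach well beyond 210 Mb when added over the chromosomes, so a mean over their whole length would be lower. Multiples of the genome-wide mean thus refer to the caller's value and not to the average input coverage. The background recovered from pileup and fold enrichment equalled the genome-wide mean of 14.2 input tags per fragment length, to within 0.01, at the highest summit of 497 regions (60.3%, 56.9 to 63.7%). Another 240 regions (29.1%, 26.0 to 32.4%) had a background within 0.01 of a whole number of input tags, from 15 to 29, as a count of input tags over the summit itself gives. In 85 regions (10.3%) it lay within 0.01 of a multiple of 0.202, the step of a count over 1000 bp, a window wide enough that some values may match it by accident. The remaining 2 matched none of these. Recomputing the caller's −log10 p as a Poisson tail from the recovered tags and background differed from the deposited value by at most 0.0025 over all 1304 summits.

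Few regions had a background far above this floor. At 110 regions (13.3%, 11.1 to 15.9%) it was 1.2 times the genome-wide mean or more, and at 19 (2.31%, 1.39 to 3.58%) 1.5 times or more. The highest, 29 input tags or 2.04 times the mean, was on chromosome 2 from 831027 to 831874, where ELF3 had 183 tags and 4.95-fold enrichment. Next came 27 input tags on chromosome 9 from 14119580 to 14120312, with 76 ELF3 tags. Backgrounds of 26 input tags were found on chromosome 1 from 27223512 to 27223897 with 92 ELF3 tags, and on chromosome 2 from 22971168 to 22971642 with 69 and from 12888574 to 12889676 with 129.

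The recovered background could not show whether input and height were related over the regions. Spearman's rho between the background and the tags at the highest summit was 0.07 over 824 regions, given as a description. Most regions sat at the genome-wide mean, where recovered backgrounds differ only through rounding, from 14.233 to 14.240. The ranks of those regions carry nothing on their local input. The share of regions at the genome-wide mean was 60.7% below 75 tags, 59.0% from 75 to under 150, 63.2% from 150 to under 250 and 56.0% from 250 tags. Regions with a background above the genome-wide mean thus occurred at all heights. With fold enrichment in place of tags rho was −0.17, under the same limit, and the background enters the fold itself as its divisor. The region of lowest enrichment, 1.99-fold on chromosome 10 from 13886796 to 13887027, had 53 tags, within the bulk of the list, over 21 input tags. Its summit lay 3 bp from its start.

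The main and second lists agreed closely on where the summits are. They come from the same tags and differ in the fragment length, 202 and 197 bp, so their agreement measures the calling step and not the experiment. Of the 1304 main summits, 230 (17.6%) had a second-call summit at the same base, 1070 (82.1%) within 5 bp and 1252 (96.0%, 94.8 to 97.0%) within 50 bp. In the other direction, 1252 of 1338 second-call summits (93.6%, 92.1 to 94.8%) had a main summit within 50 bp. The median displacement was 2 bp. At matched summits the second call had a median of 0.98 times the tags of the main call, beside a ratio of fragment lengths of 0.975.

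Agreement depended on height. All 103 summits of 150 or more tags were found within 50 bp (100%, 96.5 to 100%), the furthest at 9 bp. The share was 99.7% (98.3 to 100%) of 325 summits from 75 to under 150 tags, 97.7% (96.0 to 98.8%) of 557 from 50 to under 75 tags and 88.1% (84.0 to 91.4%) of 319 under 50 tags. The highest summits of composite regions agreed in 238 of 240 cases (99.2%), the other summits of these regions in 454 of 480 (94.6%, 92.2 to 96.4%) and single summits in 560 of 584 (95.9%, 93.9 to 97.3%).

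Of the 52 main summits with no second-call summit within 50 bp, 13 lay in the 12 regions that the second call lacked, whose heights were 39 to 58 tags. The other 39 lay in regions that were found again, and 25 of these were not the highest of their region. Of all 52, 26 were the highest or the single summit of their region.

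Regions themselves matched one to one in 799 cases, and 751 of these had the same number of summits. The main call had more summits in 17 and the second call in 31. The 12-summit region on chromosome 3 held 15 second-call summits, and each of its 12 main summits had a second-call summit within 8 bp, so the second call added summits there and moved none of the 12 by more than that. At 9 places a region of one list was divided in the other, 5 times by the second call and 4 times by the main call. The gaps at these places were 76 to 100 bp, just above the 75 bp over which the caller joins significant stretches, per the file headers. The 6-summit region on chromosome 2 at 5469582 was one of them and became regions of 4 and 2 summits.

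The highest summit of a region lay within 10 bp in both calls in 745 of the 799 regions and over 100 bp apart in 11. The largest displacements were between summits of equal or nearly equal height. On chromosome 2 from 34059867 to 34060278 the main call had summits of 42 and 43 tags and the second call 42 and 42. On chromosome 9 from 20751438 to 20752069 it was 58 and 58 against 57 and 58, and on chromosome 4 from 34374732 to 34375367 it was 47 and 48 against 47 and 46. On chromosome 11 at 7662094 the heights were 63, 68 and 69 against 61, 68 and 68. On chromosome 4 from 20496580 to 20497807 they were 40, 58, 59 and 53 against 59, 55 and 52, the first summit being absent from the second call. In each case the summits themselves stayed within 6 bp, apart from that absent one. In 3 of the 5 regions the highest summits were tied in one of the calls, and there the first of the tied summits was taken as the highest.

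**Figure D5:**
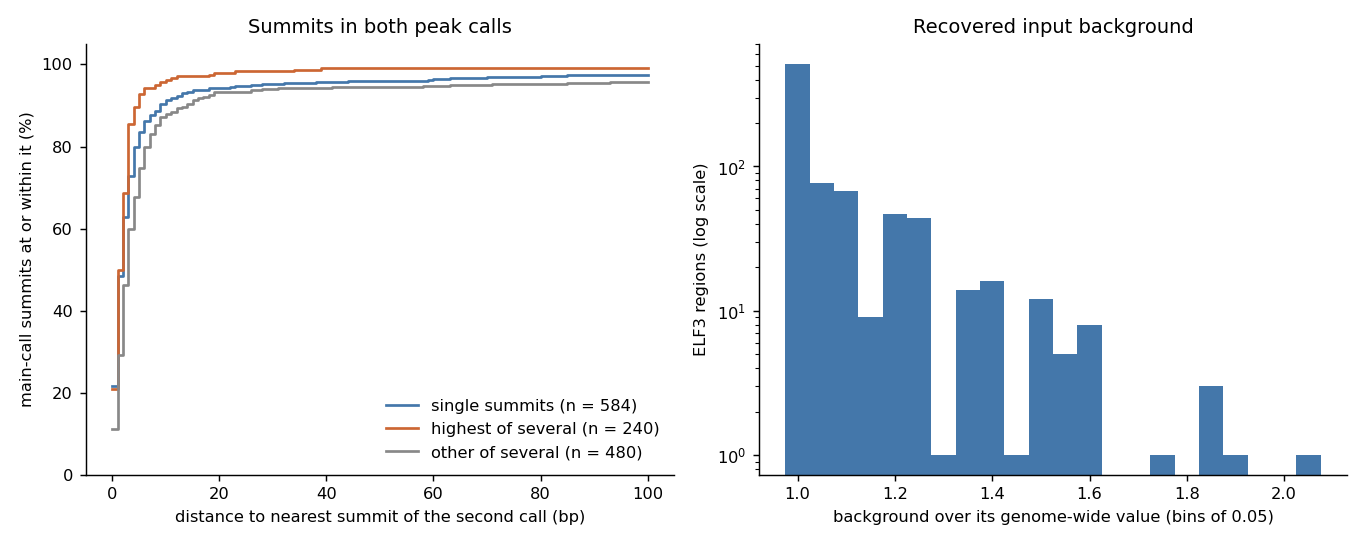
Left, percent of main-call ELF3 summits (vertical axis) with a second-call summit at or within the distance in bp on the horizontal axis, for single summits, the highest of several and the other summits of composite regions. Right, number of ELF3 regions (vertical axis, log scale) by recovered input background over its genome-wide value (horizontal axis, bins of 0.05). The highest summits of composite regions agree best (99.2% within 50 bp), and the background reaches at most 2.04 times its genome-wide value.

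Composite regions occurred on all 12 chromosomes. Their share was highest on chromosome 8, with 24 of 53 regions (45.3%, 31.6 to 59.6%) and 2.09 summits per region. On the other chromosomes it ran from 24.2% on chromosome 12 (8 of 33, 11.1 to 42.3%) to 32.9% on chromosome 7 (26 of 79, 22.7 to 44.4%). The interval of chromosome 8 overlaps those of all others, and neighbouring regions are not independent, so its place at the top is a description. Chromosome 8 also had the highest median height, 71 tags, against 55 to 65.5 on the others.

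The LUX list of the same series, from plants that carry OsLUX with its own promoter and a c-MYC tag and precipitated with an anti-MYC antibody, was set beside it at low heights. It held 246 summits in 177 regions, 3 of which reached 75 tags, against 303 of the 824 ELF3 regions. A height of 75 tags is not the same enrichment in both lists, because tags were extended to unlike lengths. The genome-wide mean background was 8.60 input tags for LUX and 14.2 for ELF3. Several summits were found in 26.6% of the LUX regions (20.2 to 33.7%), with a median of lowest over highest of 0.88 over 47 regions. Under 75 tags, the share with several summits was 26.4% in LUX regions (20.1 to 33.6%) and 18.4% in ELF3 regions (15.2 to 22.0%). Among ELF3 regions under 75 tags the median of lowest over highest was 0.89 over 96 regions, and among LUX regions under 75 tags 0.88 over 46. Summit spacing had a median of 166.5 bp in these LUX regions and 272.5 bp in these ELF3 regions, but LUX tags were extended to 122 bp and ELF3 tags to 202 bp. The second LUX list had a fragment length of 76 bp. With 1 library per protein and unlike extension, no difference between the proteins was tested.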

How the data were processed

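ChIP-seq peak lists of 1 ELF3 and 1 LUX library, each called against 1 input library, were used. Per the submitters' processing notes the build is IRGSP-1.0 and BWA, MACS2 and deepTools were used, without stated roles. Not given in the sources used here are the aligner's version and settings. Per the file headers, peaks were called with MACS 2.2.7.1 at a q-value of 0.05, with sub-peak summits, 1 tag kept per position and an effective genome size of 210 Mb. The ELF3 library held 24294237 tags and the input 15833936, of which 24% and 7% were removed as duplicates. The main list has a lower model fold of 2 and a fragment length of 202 bp, the second list 5 and 197 bp.

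The deposited pileup is coverage signal at the summit, with the larger library scaled to the smaller. The deposited fold enrichment is a ratio, (pileup + 1)/(background + 1), and the −log10 p and −log10 q values were deposited as the caller gave them. Positions count from 1.

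Tags were computed as pileup divided by 0.806, and the background as (pileup + 1)/fold − 1. A pair of summits was at the same place within 50 bp, and regions overlapped from 1 bp. The functions were tested on simulated data. Regions named were those with most summits, most and least even, of highest background, narrowest with fold of 10 or more, widest with 1 summit, most displaced between calls, and first, last and 10 strongest by fold. The members and measures were chosen with earlier results of these data known. Sets of summits by height or distance, the spacing next to the highest summit and the LUX regions under 75 tags were chosen after seeing the data. The gene table at hand is on another assembly, so summits were not assigned to genes, and no genome sequence was used. The scripts ran in Python 3.11.15 with scipy 1.17.1, numpy 2.4.6, matplotlib 3.10.9 and pandas 2.3.3.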

Additional observations from a re-analysis of the deposited data

How the results depend on the processing

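Of 35 recomputed values for the 6 measures, 17 lay within the interval of the main value (for the rank correlation, were equal to 2 decimals), and 18 did not, none with a change of direction. The second list moved only the agreement of summits, to 93.6%, and using the 12 numbered chromosomes moved nothing, since the list holds no others. With lines of −log10 q of 3 or more, spacing was 401 bp, the rank correlation 0.67 and agreement 97.9%. With −log10 q of 10 or more, the share of regions with several summits was 18.9%, spacing 478 bp, lowest over highest 0.41, the rank correlation 0.62, regions at the genome-wide background 64.1% and agreement 99.6%. Such a filter removes the minor summits of a region first, by construction. In regions of 1 kb or wider the share with several summits was 93.8%. Evenness was 0.70 as second highest over highest and 0.48 from fold enrichment above 1. The rank correlation of width and height was 0.59 in regions with 1 summit and 0.65 with fold enrichment for height. Agreement was 17.6% at the same base, 91.0% within 10 bp and 97.2% within 100 bp. No paired analysis was possible because each group holds 1 library, and no replicate could be left out. The gene and sequence measures planned for the summits were not run, because no annotation or genome of the build was at hand. Depth limits the order of low summits: at 50 tags the 95% interval runs from 37 to 66.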
